A study of Mus musculus with 10 samples.

Results

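The subject here is the comparison of Rcor2 chromatin immunoprecipitation with input chromatin, over all 6995 of the 6995 peaks in the deposited peak table and in 4 of the 10 libraries of the study. The libraries came from the cortical midline of wild type C57/Bl6 mouse embryos at embryonic day 14.5, fixed with EGS (a long-reach protein crosslinker) and then formaldehyde and sheared by sonication to fragments of 500 bases. Of these, 2 were precipitated with an Rcor2 antibody from ProteinTech and 2 were total input, that is, sheared chromatin that met no antibody. A further 2 libraries were precipitated with rabbit IgG from Cell Signalling Technologies as a control for unspecific pull-down and are given here only as side values. The study also holds RNA-seq of the same region and age, with 2 control libraries (CTL, Rcor2f/f) and 2 libraries labelled conditional knockout (cKO, Rcor2f/f with EMX1-iCRE, a recombinase driven from a gene of dorsal telencephalic progenitors). All RNA groups therefore carry the floxed allele, whereas all chromatin libraries are wild type.

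Rcor2 belongs to the CoREST proteins, which act as scaffolds. They hold histone deacetylases and Kdm1a (LSD1), a histone demethylase, together and can be brought to genes by the repressor Rest and by other transcription factors. In the developing cortex this complex is known for keeping genes silent in progenitors and for regulating the passage from progenitor to neuron. Input chromatin shows where a genome shears, sequences and maps readily without any antibody, and open promoters are known to be over-represented in it. The names of the peaks say that the authors called them in the Rcor2 libraries against IgG. The Rcor2 heights were therefore in part fixed by how the peaks were chosen, whereas nothing in the sources used here says that input was used. The level of Rcor2 over input is accordingly a description, and the results below turn on which peaks lie higher or lower than the typical peak of the table.

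The 6 promoters shown next were printed because the summit of their peak fell in the 250 bases before the annotated gene start, and because they mark both ends of the scale. Stk38, Tmcc2 and Zfp931 had the highest ratio of Rcor2 to input among such promoter peaks called above input, and Abhd18, Rrp1 and Exoc7 the lowest among those called below. Each sequence is the gene's own strand, 5′ to 3′, from RefSeq (GRCm38.p6, the assembly behind mm10), and the capitals mark CG dinucleotides.
Stk38 (chr17:29007996-29008245, minus strand): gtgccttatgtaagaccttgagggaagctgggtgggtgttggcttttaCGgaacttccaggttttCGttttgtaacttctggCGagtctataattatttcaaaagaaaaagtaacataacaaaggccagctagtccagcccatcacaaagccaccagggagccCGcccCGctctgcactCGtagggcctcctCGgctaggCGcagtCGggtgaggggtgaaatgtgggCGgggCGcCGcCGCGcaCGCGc
Tmcc2 (chr1:132390319-132390568, minus strand): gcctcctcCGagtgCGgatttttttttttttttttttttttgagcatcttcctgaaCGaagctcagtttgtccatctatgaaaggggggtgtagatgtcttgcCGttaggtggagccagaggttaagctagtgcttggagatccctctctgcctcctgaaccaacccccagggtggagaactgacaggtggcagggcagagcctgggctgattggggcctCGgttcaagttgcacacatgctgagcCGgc
Zfp931 (chr2:178078426-178078675, minus strand): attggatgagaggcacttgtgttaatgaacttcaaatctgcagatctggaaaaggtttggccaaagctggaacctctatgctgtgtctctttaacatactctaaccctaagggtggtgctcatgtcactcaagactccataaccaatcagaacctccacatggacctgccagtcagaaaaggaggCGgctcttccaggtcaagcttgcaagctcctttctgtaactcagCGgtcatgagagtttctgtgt
Abhd18 (chr3:40894009-40894258, plus strand): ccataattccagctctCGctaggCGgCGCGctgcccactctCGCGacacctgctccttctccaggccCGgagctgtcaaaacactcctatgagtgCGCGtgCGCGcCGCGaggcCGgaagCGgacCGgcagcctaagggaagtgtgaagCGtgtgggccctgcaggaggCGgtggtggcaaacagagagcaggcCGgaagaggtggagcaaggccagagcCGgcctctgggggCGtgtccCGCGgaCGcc
Rrp1 (chr10:78413044-78413293, minus strand): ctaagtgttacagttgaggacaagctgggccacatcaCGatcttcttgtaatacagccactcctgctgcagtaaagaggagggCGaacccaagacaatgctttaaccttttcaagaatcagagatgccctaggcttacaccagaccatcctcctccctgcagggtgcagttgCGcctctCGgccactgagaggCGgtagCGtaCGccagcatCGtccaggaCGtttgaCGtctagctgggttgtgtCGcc
Exoc7 (chr11:116306735-116306984, minus strand): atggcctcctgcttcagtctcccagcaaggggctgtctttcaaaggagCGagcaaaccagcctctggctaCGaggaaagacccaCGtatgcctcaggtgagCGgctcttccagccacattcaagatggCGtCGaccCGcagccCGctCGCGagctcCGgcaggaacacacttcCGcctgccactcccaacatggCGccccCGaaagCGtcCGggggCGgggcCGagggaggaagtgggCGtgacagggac
The 250 bases of Stk38, Tmcc2 and Zfp931 held 16, 6 and 2 CG dinucleotides, and those of Abhd18, Rrp1 and Exoc7 held 24, 11 and 19. At the Abhd18 promoter the Rcor2 heights were 14 and 11 and the input heights 36 and 38. At the Zfp931 promoter, a zinc finger gene, the order was the opposite, with Rcor2 heights of 31 and 30 and input heights of 15 and 9. The Stk38 promoter, of a serine/threonine kinase, had Rcor2 heights of 15 and 17 over input heights of 7 and 4, so it passed with little more than typical Rcor2 height (limma adjusted p 0.0437).

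A height is the coverage the authors give for a library at a peak, as a whole number with no scaling for sequencing depth that the values show. The totals of the libraries were not used here, so a ratio of heights carries the unknown ratio of their depths. Over all peaks the median height was 13 and 19 in the Rcor2 libraries, 13 and 12 in the input libraries and 4 and 3 in the IgG libraries. Rcor2 replicate 2 was thus higher than replicate 1 across the table, while the inputs lay close together. Input heights followed the same order in both libraries (Spearman correlation 0.71 over 6995 peaks), Rcor2 heights much less so (0.30), and IgG heights least (0.12). These correlations are across peaks of the same libraries and are given as descriptions. The labels do not say whether replicates came from separate embryos or litters, so the p-values below speak only of these libraries. In the peak comparison the spread behind each p-value came mostly from a trend over all peaks (2 residual and 181 prior degrees of freedom). A small p-value at a peak is therefore not a measure of how closely its own libraries agreed.

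The first question was how Rcor2 stood against input at each peak. The ratio of the mean Rcor2 height to the mean input height, with 0.5 added to both, had a median of 1.33 and ran from 0.320 to 15.5. In replicate 1 the median ratio was 1.00 and in replicate 2 it was 1.61, a shift that follows from the height of Rcor2 replicate 2. Both Rcor2 heights were above both input heights at 2819 peaks, 40.3% of the table, and both were below at 635 peaks, 9.08%. The ratio reached 2 at 1165 peaks, 16.7%, and was at most 0.5 at 73 peaks, 1.04%. In deposited heights, peaks that had been called against IgG were thus often near input. With the depths of the libraries unknown, this does not give the level of Rcor2 over input or over IgG.

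To set the peaks against each other, each library was centred on its own median over peaks and the centred log2 heights were compared by limma. At an adjusted p under 0.05, 452 peaks, 6.46% of those tested, lay above input relative to the typical peak and 670 peaks, 9.58%, lay below. Above and below are used in this sense from here on. The peaks above had median heights of 20 and 28 in Rcor2 and 9 and 8 in input. The peaks below had 12 and 18 in Rcor2 and 26 and 23 in input. The peaks above thus combined a raised Rcor2 height with a lowered input height, whereas the peaks below had nearly the Rcor2 height of the whole table and about 2-fold its input height. In all 452 peaks above, both Rcor2 heights exceeded both input heights. The counts rest on the centring: with heights left as deposited 206 were above and 16 below, and centred on the upper quartile 662 were above and 527 below. With the IgG libraries included in the estimate of the spread 7 were above and 7 below. Without input replicate 2 there were 38 above and 15 below, without input replicate 1 72 and 29, without Rcor2 replicate 1 93 and 337, and without Rcor2 replicate 2 121 and 466.

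**Figure D1:**
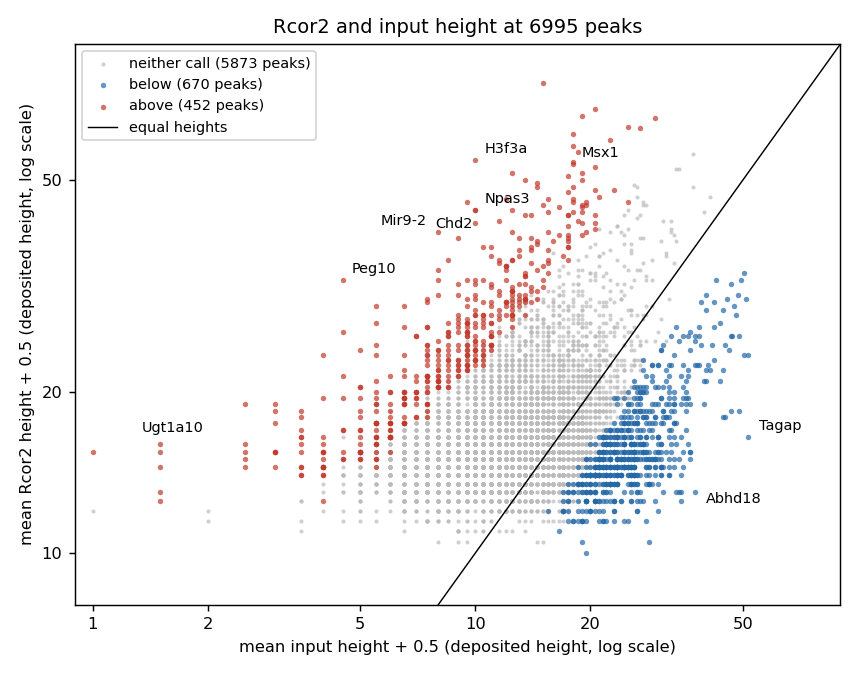
Mean input height (horizontal, log scale) against mean Rcor2 height (vertical, log scale) for each of 6995 peaks, with 0.5 added, and colours for peaks above (452), below (670) and neither (5873). The 670 peaks below spread to the right at Rcor2 heights like those of other peaks, and H3f3a, Msx1, Npas3, Chd2 and Mir9-2 lie among the highest Rcor2 heights.

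Input height alone ordered much of this ratio. When the 6995 peaks were cut into 10 equal sets by mean input height, the median input height went from 6.0 in the lowest set to 25.5 in the highest, while the median Rcor2 height went only from 14.5 to 17.5. The median ratio fell from 2.42 to 0.657 along these sets, as a ratio with input below the line must when Rcor2 height varies little. The lowest input set held 169 of the 452 peaks above and none of the 670 below, and the highest held 6 above and 500 below. Cut by Rcor2 height in the same way, the highest set held 246 of the 452 peaks above and the lowest 3. The choice of peaks as enriched over IgG sets a floor under the Rcor2 height (the lowest mean over the table was 9.5), and its part in this pattern was not tested.

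The ratio was partly shared between replicates. Peaks were ranked by ratio in replicate 1 alone and the 699 highest taken. In replicate 2 these had a median ratio of 2.41, against 1.61 for all peaks. The 699 highest of replicate 2 had a median of 1.62 in replicate 1, against 1.00 for all. Both sets shared 216 peaks, 30.9% of each and 3.09% of the table. Of these 216 peaks, 181 were also above by limma. Over all peaks the ratios of both replicates had a Spearman correlation of 0.53; each ratio uses its own pair of libraries, but the inputs share the properties of the genome.

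**Figure D2:**
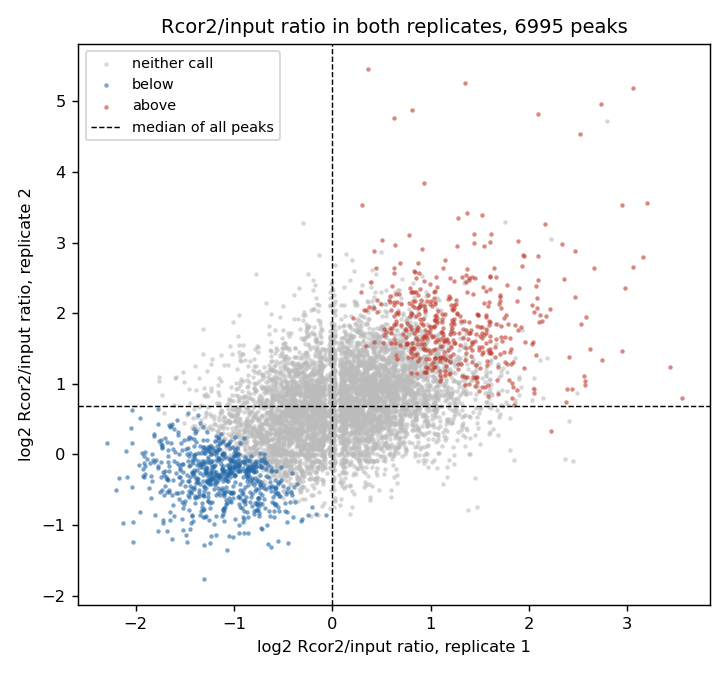
Log2 ratio of Rcor2 to input in replicate 1 (horizontal) and replicate 2 (vertical) for each of 6995 peaks, slightly spread so that equal values can be seen, with dashed lines at the medians of all peaks. The cloud is centred at a ratio of 1.00 in replicate 1 and 1.61 in replicate 2, with red for peaks above and blue for peaks below.

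The peaks that stood out most over input included intergenic peaks without a gene name and peaks at genes of diverse function. At Peg10, an imprinted gene derived from a retrotransposon, the peak at chr6:4751852-4752749 in the gene body had Rcor2 heights of 29 and 35, input heights of 3 and 5 and IgG heights of 5 and 4. The ratio was 7.22 and the centred log2 difference 2.56 (SE 0.37, limma adjusted p 4.75e-08). Both Rcor2 heights were far above both inputs, and above IgG, against which the peaks had been called. At H3f3a, which encodes the replacement histone H3.3, the promoter peak at chr1:180811525-180812118 had Rcor2 heights of 49 and 59, input heights of 9 and 10 and IgG heights of 5 and 2. Its ratio was 5.45, and it shared the smallest adjusted p of the table with the Tagap peak described below (limma adjusted p 6.33e-11). At Echdc2 a distal peak had Rcor2 heights of 21 and 36 over input heights of 7 and 3, a ratio of 5.27.

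The very highest ratios came from peaks with almost no input. The gene body peak of Ugt1a10, a glucuronosyltransferase, had Rcor2 heights of 16 and 15 and input heights of 2 and 0 (ratio 10.7, limma adjusted p 0.00694). The highest ratio of the table, 15.5, was at a distal peak of Lin28b, the RNA-binding protein that blocks let-7 maturation, with Rcor2 heights of 12 and 18 and input heights of 1 and 0. That peak was outside the rule for named genes and was chosen after its values were seen. In both, the Rcor2 heights were typical of the table and the input was near 0, so 1 read more or less in an input library moves the ratio greatly. Sh2d1b1 (Rcor2 12 and 19, input 2 and 2) and the pseudogene Vmn2r-ps11 (Rcor2 10 and 24, input 2 and 3) were of the same kind, with ratios of 6.40 and 5.83. Restricting the test to peaks with a mean input height of at least 3, a choice made after seeing the data, left 403 peaks above and 664 below.

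A stricter set met 3 criteria, all drawn from the same 4 libraries. They were above by limma, among the 699 highest ratios in each replicate, and a mean Rcor2 height of at least 18.5. The set held 122 peaks at 86 named genes, with 17 at promoters, 44 in gene bodies, 28 distal and 33 intergenic. Its median ratio of 3.21 follows from these criteria. The distal peak of Mir9-2 was among the strongest. It starts 4.5 kb beyond the end of the hairpin (chr13:83743403-83743852), with Rcor2 heights of 35 and 44, input heights of 6 and 9 and IgG heights of 3 and 6, a ratio of 5.00 (limma adjusted p 4.56e-08). Both input heights were under 10 there and both Rcor2 heights were at least 35. The hairpin gives miR-9, a microRNA known for its abundance in neural progenitors, whose mature 5′ arm is printed because it is the product of the gene that the authors name for this peak, with the seed (bases 2 to 8) in capitals.
mmu-miR-9-5p: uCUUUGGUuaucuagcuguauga
Others of the set were peaks in the bodies of Dlg2, a scaffold of synapses (Rcor2 26 and 21, input 4 and 5, ratio 4.80), Dpyd, an enzyme of pyrimidine breakdown (33 and 57 over 11 and 7, ratio 4.79), and Cntnap2, an adhesion molecule of neurons (19 and 33 over 7 and 5, ratio 4.08). Promoter members included Spin1, a reader of histone methylation (25 and 42 over 8 and 7, ratio 4.25), Adam19, a metalloprotease (37 and 54 over 11 and 12, ratio 3.83), and Mrps30, a mitochondrial ribosomal protein (29 and 34 over 8 and 9, ratio 3.56).

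Fewer peaks were called whichever library was left out. Of the 452 peaks above, 13 were called without each of the 4 libraries in turn, and of the 670 below, 9. The 13 included H3f3a, Peg10, Mir9-2, Npas3, Spin1, Adam19, Dpyd, Dennd1a and Lep, with E330013P04Rik, whose gene body peak had Rcor2 heights of 42 and 60 over input heights of 11 and 13 (ratio 4.12). The 9 included Tagap, Rrp1, Rps6ka1 and Cacna1b, and the promoters of Fgfbp3, a binding protein of fibroblast growth factors (Rcor2 14 and 21, input 50 and 39), and Mir6546 (15 and 21, input 51 and 41). With the IgG libraries in the fit the 7 peaks still above were those of H3f3a, Peg10, Adam19, Dpyd, E330013P04Rik and Chd2 and an intergenic peak on chromosome 4, all with a limma adjusted p of 0.0491. H3f3a, Peg10, Adam19, Dpyd, E330013P04Rik and that chromosome 4 peak were thus called in all 5 of these fits, which reuse the same libraries. Most of the peaks above were called in none of the 4 fits with a library left out.

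The tallest Rcor2 peaks were in part other peaks. The highest mean Rcor2 height was at an intergenic peak on chromosome 10 (72297119 to 72297437) with heights of 26 and 125, so that replicate 2 alone set it; its input heights were 15 and 14 and its IgG heights 12 and 12. Scfd2 followed with Rcor2 heights of 49 and 86 over input heights of 23 and 17, and a distal peak of Lep, the leptin gene, with 51 and 80 over 17 and 20. Lrp8, a reelin receptor, had 41 and 84 over 26 and 23, and Kif11, a mitotic kinesin, 51 and 67 over 23 and 21. All 5 were above, with ratios of 5.07, 3.32, 3.47, 2.52 and 2.64. They were chosen after their values were seen, as the tallest of the table and named examples among them.

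Some peaks above lay side by side. Within gaps of 100 kb, 31 runs of at least 2 peaks held 70 of the 452 peaks above. The run with the most was on chromosome 13 from 23436186 to 23526530, in the histone cluster, where 6 of 15 peaks were above, at Btn2a2, C230035I16Rik and Hist1h4h. At Slc7a15, a solute carrier gene on chromosome 12 (8618979 to 8635536), 5 of 7 peaks were above, with ratios of 3.07 to 6.33 and a median input height of 2.5. That input height is far under the 12.5 of all peaks, while the median Rcor2 height of the run was 18.5 against 15.5. The run at Trim27, a tripartite motif gene on chromosome 13 (21167479 to 21173207), was different, since its Rcor2 heights were high and its input heights typical. Its 3 peaks had Rcor2 heights of 39 and 48, 47 and 74, and 21 and 39, over input heights of 10 and 14, 19 and 16, and 11 and 13. Dennd1a and Atf7ip, a partner of the histone methyltransferase Setdb1, followed with 3 of 11 and 2 of 8 peaks above. In all, 310 genes had a peak above, 19 of them at least 2, out of 3376 named genes.

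Gene families were counted by symbol after the values had been seen, as a description. Tripartite motif (Trim) genes had 6 of 31 peaks above, 19.4%, at Trim24, Trim27 (3 peaks), Trim41 and Trim7, and 1 below. Zinc finger (Zfp) genes had 8 of 112 above, 7.14%, and 11 below, near the 6.46% and 9.58% of the table. Replication-dependent histone genes had 3 of 22 above and 6 below. MicroRNA genes had 3 of 88 above, 3.41%, including Mir9-2, and 12 below. Vomeronasal and olfactory receptor genes had 3 of 10 above, with mean input heights of 1.0 to 7.0, under the median of 12.5.

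At the other end, the lowest ratio was at a distal peak of Tagap (chr17:7911353-7911612). Its Rcor2 heights were 14 and 18, its input heights 58 and 44 and its IgG heights 5 and 5. The ratio was 0.320 and the centred log2 difference -1.96 (SE 0.23, limma adjusted p 6.33e-11). Both inputs were more than 2-fold both Rcor2 heights, and IgG was as low as elsewhere. The promoters of Rrp1, which acts in ribosomal RNA processing (Rcor2 15 and 21, input 48 and 49), Cdk5rap3 (6 and 14 over 28 and 28) and Azi2 (12 and 13 over 35 and 31) had ratios of 0.378, 0.368 and 0.388. A distal peak of Rps6ka1, a kinase of the MAP kinase pathway, had 9 and 15 over 38 and 30, a ratio of 0.362. The highest inputs were at Tagap, at gene body peaks of Cacna1b, a neuronal calcium channel (Rcor2 19 and 27, input 56 and 46), Cdk18 (27 and 39, input 56 and 44) and Fto, an RNA demethylase (17 and 29, input 58 and 42), and at 2 intergenic peaks. All 6 were below.

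**Figure D3:**
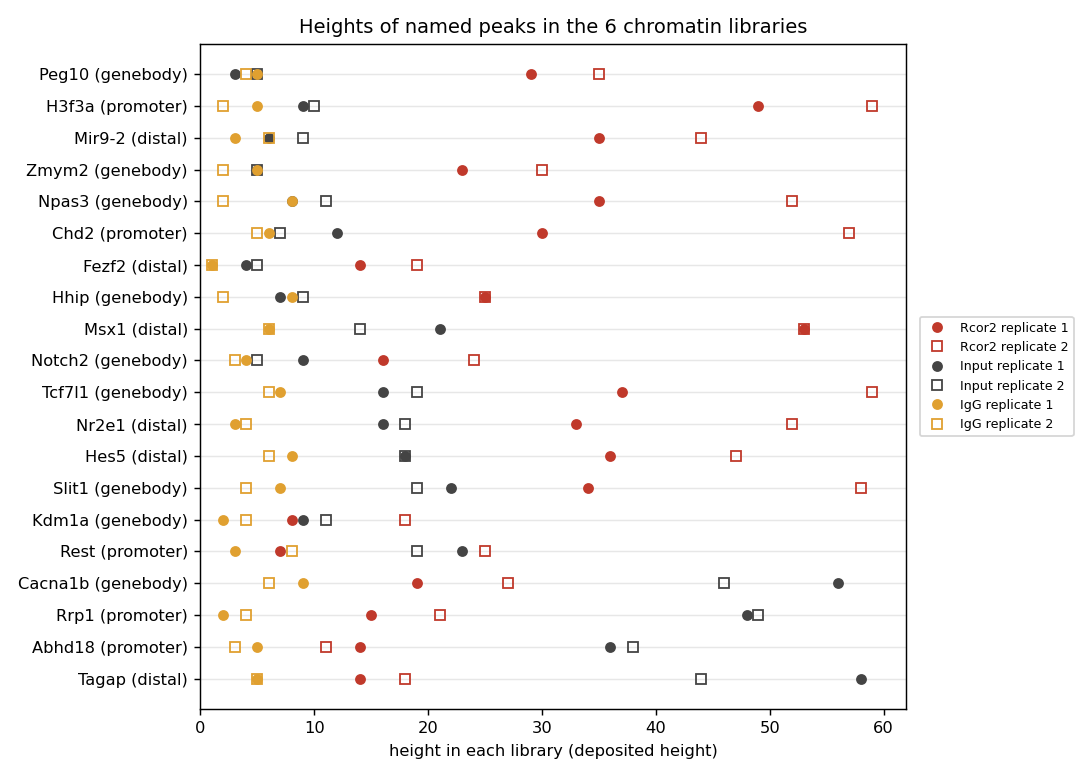
Height in each of the 6 chromatin libraries (horizontal; red Rcor2, black input, orange IgG; filled circles replicate 1, open squares replicate 2) for 20 named peaks, from those above at the top to those below at the bottom. At Peg10 the Rcor2 heights are 29 and 35 against 3 to 5 in all other libraries, and at Tagap the input heights are 58 and 44 against Rcor2 heights of 14 and 18.

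Between locations the median input height differed and the median Rcor2 height did not. The authors' table puts 1619 peaks at promoters, 2515 in gene bodies, 1219 distal and 1642 between genes. The median Rcor2 heights were 13 and 19 in each of the 4 classes. The median input heights were 15 and 14 at promoters, 12 and 11 in gene bodies and intergenic peaks, and 13 and 12 at distal peaks. The median ratio was accordingly 1.16 at promoters and 1.37, 1.36 and 1.38 in the gene body, distal and intergenic classes. On a log2 scale the promoter median was lower than that of the other classes by -0.24 in the ratio of means, by -0.32 in replicate 1 and by -0.21 in replicate 2. An exact permutation test (two-sided) over the 4 libraries used another measure, the mean log2 height of promoter peaks minus that of the other peaks. On this measure Rcor2 minus input was -0.26, and the permutation test gave p = 0.333, the smallest that 2 against 2 allows. Promoters held 41.5% of the peaks below and 19.2% of the peaks above, against 23.1% of all peaks. By class, 5.37% of promoter peaks were above and 17.2% below, whereas at distal peaks 7.96% were above and 8.45% below.

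Within promoters the difference was larger close to the gene start. RefSeq gave a start for 1133 of the 1619 promoter peaks, and the distance from it to the summit was taken where it was within 1000 bases. The 335 peaks within 300 bases of the start had median input heights of 19 and 17 and median Rcor2 heights of 13 and 19. The 564 peaks at over 300 and up to 1000 bases had input heights of 14 and 14 and Rcor2 heights of 13 and 20. Near the start input was thus higher at nearly the same Rcor2 heights, and the ratio was 0.921 near the start and 1.23 farther out. Near the start 13 peaks, 3.88%, were above and 98, 29.3%, below. Farther out 25, 4.43%, were above and 70, 12.4%, below. Outside promoters the median ratio was 1.37, with 6.79% above and 7.29% below, so the median of the peaks farther out was also lower than there.

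**Figure D4:**
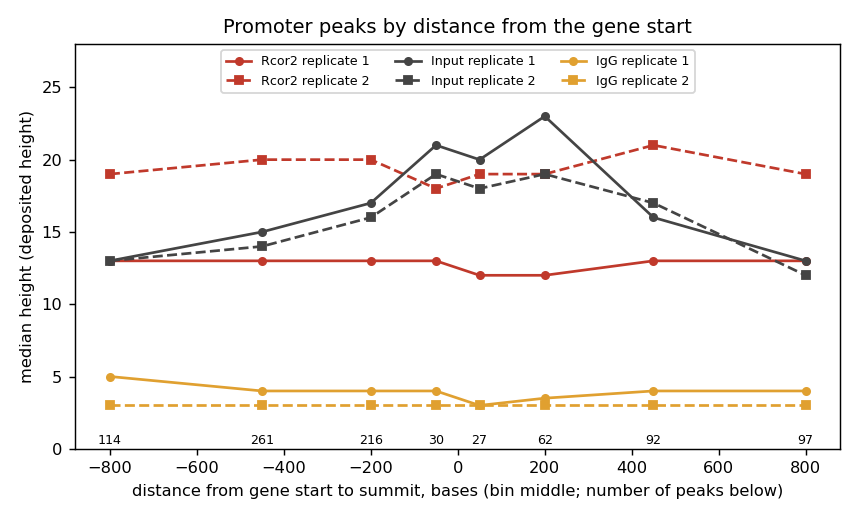
Median height in each of the 6 chromatin libraries (vertical) for promoter peaks in bins of distance from the gene start to the summit (horizontal, in bases; negative is upstream), with the number of peaks under each point. Input rises around the start while the Rcor2 medians of each replicate stay level, so the median ratio is lowest in the bin just upstream (0.709) and highest in the farthest downstream bin (1.36).

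The sequences of these promoters were compared through the RefSeq windows of 250 bases before to 50 after the start, which 384 promoter peaks overlapped. The median number of CG dinucleotides in the window was 16 for the 19 peaks above, 22 for the 83 below and 18 for the other 282, against 7 over all 32851 windows. The GC content had medians of 51.7%, 61.3% and 57.3% in the same order, and 52.7% over all windows. The GC box (GGGCGG, either strand) was in 52.6% of the windows above, 59.0% of those below and 35.7% of all windows. The ETS core CCGGAAG was in 18.5% of the 384 windows and 8.86% of all. By call it was in 15.8% of the windows above, 24.1% of those below and 17.0% of the others. The cAMP response element TGACGTCA was in 7.29% of the 384 and 1.79% of all, and in 5.26%, 7.23% and 7.45% by call. The YY1 motif AAGATGGC was in 7.03% and 2.75%, and in 5.26%, 4.82% and 7.8% by call. An NRF1 motif was in 5.21% and 0.971%, and in 10.5% (2 of 19), 6.02% and 4.61% by call. CG content, with a median of 19 CG in the 384 windows and 7 in all, was not adjusted for. The left part of the Rest element, TTCAGCACC, was in none of the 384 windows and in 0.371% of all, and its right part, GGACAGC, in 7.29% and 6.56%. The right part was in 2 of the 19 windows above and 2 of the 83 below. Motifs were searched on both strands as exact letters and may overlap. All these shares compare promoters under a peak with all promoters or with each other by call, and are descriptions of those windows.

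Longer peaks were more often above. Peaks ran from 150 to 1673 bases with a median of 236. Among peaks of 333 bases and more, 259 of 1747 peaks, 14.8%, were above and 138 below, whereas among those of at most 181 bases, 43 of 1780, 2.42%, were above and 199 below. The authors' fold over IgG, their own value per peak, ordered peaks in the same sense. Its highest 699 peaks had a median ratio to input of 1.85 with 34.6% above, and its lowest 699 a median of 1.17 with 1.00% above. Length, fold and the ratio all share the Rcor2 libraries.

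Among genes of the complex itself, Rcor2 had no peak in the table. Zmym2, a zinc finger partner of the LSD1-CoREST complex, had a gene body peak with Rcor2 heights of 23 and 30, input heights of 5 and 5 and IgG heights of 5 and 2. Its ratio was 4.91 and its centred log2 difference 1.96 (SE 0.36, limma adjusted p 1.69e-05). Both Rcor2 heights were above both inputs, as at 40.3% of all peaks, and above IgG, against which the peaks had been called. Kdm1a, the demethylase, had a gene body peak with Rcor2 heights of 8 and 18 over input heights of 9 and 11, a ratio of 1.29 that did not pass (limma adjusted p 0.938). The promoter peak of Rest, the repressor after which the family is named, had Rcor2 heights of 7 and 25 and input heights of 23 and 19 and was below (limma adjusted p 0.0162). The Rcor2 replicates disagreed at Rest, with replicate 1 under and replicate 2 over both inputs. Of 24 peaks at 12 genes of the list for the complex and Rest, 1 was above and 3 below, with a median ratio of 1.41.

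Lists of genes for the pathways of the midline were described in the same way, by counts and medians beside those of all peaks (6.46% above, 9.58% below, median 1.33). They give no test, and the counts in each are small. Among Hedgehog genes 1 of 14 peaks was above and 1 below, 7.14% each way. The peak above was in Hhip, the decoy receptor for Hedgehog ligands, with Rcor2 heights of 25 and 25 over input heights of 7 and 9 (ratio 3.0, limma adjusted p 0.00198). Cdon, a co-receptor, had 3 distal peaks. The one with the highest ratio had Rcor2 heights of 35 and 39 over 20 and 19, a ratio of 1.88 that did not pass (limma adjusted p 0.0799), and another, with 9 and 24 over 22 and 22, was below (ratio 0.756, limma adjusted p 0.0197).

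Wnt, Bmp and cortical hem genes had 3 of 44 peaks above, 6.82%, and 4 below. A distal peak of Msx1, a homeobox gene known to respond to Bmp, had Rcor2 heights of 53 and 53, input heights of 21 and 14 and IgG heights of 6 and 6. Its ratio was 2.97 and its centred log2 difference 1.28 (SE 0.23, limma adjusted p 1.25e-05). A distal peak of the ligand Wnt7b had Rcor2 heights of 29 and 57 over 19 and 16, a ratio of 2.42. Tcf7l1, a DNA-binding effector of Wnt signalling, held peaks of both kinds among its 7. Its gene body peak with 37 and 59 over 16 and 19 was above (ratio 2.69, limma adjusted p 0.000281), and its promoter peak with 5 and 25 over 26 and 22 was below (ratio 0.633, limma adjusted p 0.000432).

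Notch genes had 3 of 18 peaks above and 3 below, 16.7% each way. The receptor Notch2 had 16 and 24 over 9 and 5 in its body (ratio 2.73), and the coactivator Maml3 13 and 17 over 5 and 4 (ratio 3.10). Hes5, the transcriptional effector of the pathway, held 6 distal peaks on chromosome 4 between 154948161 and 154958776. The peak with Rcor2 heights of 36 and 47 over input heights of 18 and 18 was above (ratio 2.27, limma adjusted p 0.00592), and 2 neighbours with 18 and 16 over 24 and 26 and 10 and 12 over 24 and 14 were below (ratios 0.686 and 0.590). In radial glia genes 3 of 48 peaks were above and 4 below, 6.25% and 8.33%. Those above were the same peaks of Hes5 and Notch2 and a peak of Nr2e1, the orphan receptor of neural stem cells, at 33 and 52 over 16 and 18 (ratio 2.46). Those below were the 2 of Hes5, a distal peak of the receptor Fgfr3 (12 and 15 over 30 and 16, ratio 0.596) and the promoter peak of Vim, an intermediate filament gene (6 and 19 over 20 and 14, ratio 0.743).

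Axon guidance and callosal crossing genes had 105 peaks, the most of any list, of which 3 were above, 2.86%, and 11 below, 10.5%. Slit1, a repellent of commissural axons, had a peak above in its body (34 and 58 over 22 and 19, ratio 2.21) and, close by, a peak below (10 and 18 over 22 and 18, ratio 0.707). Nfia, a transcription factor needed for midline glia, had 14 peaks in its body. The peak with 25 and 30 over 11 and 11 was above (ratio 2.43, limma adjusted p 0.0106), whereas the peak with the highest ratio, 3.0, had heights of only 8 and 15 over 4 and 3 and did not pass (limma adjusted p 0.164). Epha4, an ephrin receptor, had a distal peak of 14 and 25 over 6 and 8 (ratio 2.67). Sema3d, Epha3, Sema5a and Sema6a were among the genes with peaks below, with ratios from 0.492 at Sema3d to 0.698 at Sema5a.

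Genes of projection neuron layers had 2 of 49 peaks above and 4 below, 4.08% and 8.16%. A distal peak of Fezf2, which specifies subcerebral neurons, had 14 and 19 over 4 and 5 with IgG heights of 1 and 1 (ratio 3.40, limma adjusted p 0.0172), and Sox5, a deep-layer factor, had 29 and 25 over 13 and 11 (ratio 2.20). The peaks below were at the promoters of Lmo4, Rorb and Tle4 and in the body of Cux2, with ratios from 0.545 at Tle4 to 0.717 at Cux2. Pan-neuronal genes had 2 of 38 above, among them a peak in the body of Nlgn1, which encodes an adhesion molecule of the synapse (11 and 17 over 2 and 4, ratio 4.14). The same list had 5 peaks below, 2 of them in Elavl3, an RNA-binding protein of neurons. In the list of ventral and interneuron genes, the gene body peak of Npas3, a transcription factor of the PAS family, was above (35 and 52 over 8 and 11, ratio 4.40, limma adjusted p 1.16e-07), while another of its 7 peaks was below (8 and 15 over 17 and 22).

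Histone and DNA modifier genes had 2 of 55 peaks above and 8 below, 3.64% and 14.5%. The promoter peak of Chd2, a chromatin remodeller, had Rcor2 heights of 30 and 57 over 12 and 7 (ratio 4.40, limma adjusted p 2.37e-07), and that of Suz12, a Polycomb subunit, 25 and 36 over 13 and 15 (ratio 2.14). RNA processing genes had 1 of 15 above, Tra2b (19 and 21 over 5 and 10, ratio 2.56), and 4 below, of which the promoter of Hnrnpl had 9 and 18 over 38 and 25 (ratio 0.438). In the lists of neurogenic progenitors (7 peaks), the cell cycle (12), ribosomal genes (6), retinoid handling (4) and immediate early genes (12) none was above or below. The highest ratios there were 2.08 at Neurog2, 1.87 at Aurkb, 1.60 at Eef1a1, 1.69 at Crabp1 and 1.45 at Mycl.

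**Figure D5:**
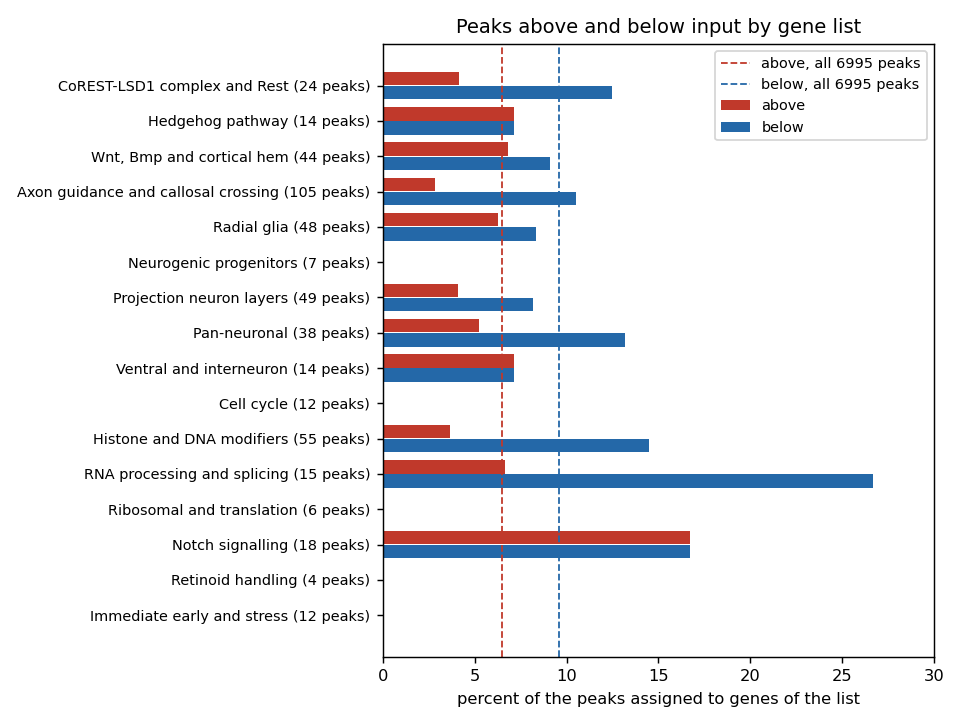
Percent of the peaks assigned to the genes of each list that were above (red) or below (blue) input, with dashed lines at the share over all 6995 peaks (6.46% and 9.58%) and the number of peaks beside each name. Most lists lie near or under the red line, and the largest shares belong to lists with few peaks, such as Notch signalling (18 peaks) and RNA processing (15).

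The RNA libraries were used to ask how transcripts of these genes stood in the midline labelled cKO. In the controls the targeted gene was at 7901 and 7257 normalized counts, and the libraries labelled cKO showed 6363 and 6840, a difference that did not pass (Rcor2 log2 change -0.20, SE 0.057, limma adjusted p 0.0541), so these counts are a weak check of the labels. The marker counts below stand beside 6.16% that rose and 8.29% that fell of all 14324 tested genes. The summed level of 10 dorsal telencephalic markers was 82754 and 82866 normalized counts in the controls and 78961 and 80441 in the libraries labelled cKO. Of these 10, 4 rose and 3 fell. The 8 ventral markers summed to 1862 and 2006 in the controls and to 1192 and 1229 in those labelled cKO, with 3 of 6 tested lower. Blood markers, 4 of 8 in the table, summed to 1675 and 2350 against 889.5 and 1407, with 2 of 4 lower. Markers of the medial edge and hem were at 11271 and 11413 in the controls and 13661 and 13483 in those labelled cKO, with 4 of 10 higher. Those of the choroid plexus were at 339 and 358 against 499 and 490.3, with 2 of 5 tested higher. These 2 were Otx2, which made up most of the sum (191 and 214 against 297 and 297), and Folr1 (28.3 and 25.9 against 58.6 and 58.7). Ttr was lower, at 19.5 and 14.1 against 9.26 and 5.87, and did not pass (limma adjusted p 0.128). Kcnj13 was near 0 and not tested. Meningeal markers summed to 1418 and 1235 for the controls, whereas the libraries labelled cKO showed 8522 and 1798, so replicate 1 of that group stood apart, and 2 of 9 were higher. Microglial markers were at 1613 to 1868 and those of endothelium and mural cells at 6034 to 6478 over the 4 libraries, with none of either list changed. The sums of the groups did not overlap in any of the 8 lists, also not in the microglial and endothelial lists, where no gene changed. With 2 libraries a group such a separation says little, since the smallest p of an exact permutation test (two-sided) is 0.333. The share of all genes with groups that did not overlap was not taken. The part of these marker levels in the results was not tested.

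Over all 14324 tested genes, 6.16% rose and 8.29% fell. Of 256 tested genes with a peak above, 33 rose, 12.9%, and 21 fell, 8.20%. Of 2136 genes with peaks that were neither above nor below, 11% rose and 11% fell, and of 383 with peaks below and none above, 10.7% rose and 9.92% fell. Genes with no peak had 4.97% and 7.75%. The share that rose was thus close in the 3 sets of genes with peaks, and the differences between the sets were not tested. Of 71 tested genes with a promoter peak above, 10 rose, 14.1%, and 1 fell, 1.41%. Of 228 with a promoter peak below, 22 rose, 9.65%, and 17 fell, 7.46%. The numbers of genes with a peak above that rose or fell changed strongly when 1 RNA library was left out, which left 1 library in a group. In each such fit the numbers over all tested genes changed in the same direction.

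Rhbdl3, a rhomboid-like membrane protein with a gene body peak above (48 and 37 over 19 and 15, ratio 2.46), was at 3850 and 3873 normalized counts in control midline, compared with 5408 and 4830 in the libraries labelled cKO. Its log2 change was 0.40 (SE 0.059, limma adjusted p 0.00689), and the groups did not overlap. Dmrt1, a transcription factor known from the testis, rose from 41.0 and 60.5 to 160 and 127 normalized counts and had a peak of 20 and 27 over 9 and 7. Syne3, a nuclear envelope protein, rose from 39.0 and 45.4 to 161 and 101 and had a peak of 32 and 42 over 17 and 10, and Hist1h2ai rose by a log2 change of 0.35 with a peak of 22 and 32 over 13 and 9. Hes5 rose from 1800 and 1890 to 2296 and 2275 normalized counts (log2 0.31, SE 0.052, limma adjusted p 0.00907).

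Among transcripts that fell, Grik3, a kainate receptor subunit, was at 1977 and 1973 normalized counts in control midline, compared with 1293 and 1403 in the libraries labelled cKO (log2 change -0.55, SE 0.059, limma adjusted p 0.00429), and its peak had 26 and 32 over 13 and 14. Ppp2r2b, a regulatory subunit of protein phosphatase 2A, fell from 8324 and 7978 to 4806 and 5667 (peak 21 and 31 over 11 and 6). Sox5 fell by a log2 change of -0.33 and Plcb1, a phospholipase C, by -0.34, with the Plcb1 peak at 20 and 28 over 6 and 4. Transcripts at several of the most distinct peaks did not pass. Log2 changes were 0.19 at Peg10, 0.02 at H3f3a, 0.16 at Npas3 and -0.01 at Zmym2, and none passed (limma adjusted p 0.18, 0.948, 0.106 and 0.944).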

How the data were processed

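Cortical midline of mouse embryos was profiled by ChIP-seq (2 Rcor2, 2 IgG and 2 input libraries) and RNA-seq (2 control and 2 cKO libraries), grouped by their titles. Tools that appear in the submitters' processing notes, without a step, are Trim Galore and HISAT2 2.1.0, with mm10 as the build. Not given in the sources used here are the peak caller's settings, any pooling of replicates and the rule behind location classes and gene names. Per the file headers, the authors deposited for each peak a height (a coverage signal) in each of 6 libraries, a pileup signal, a fold enrichment (a ratio over IgG) and 2 columns that by place and range are −log10 p and −log10 q. Peak numbers run to 7106 and 6995 are listed. The RNA table, per the file headers, holds normalized counts, a signal from which whole reads were recovered for 100% of values (within 0.05 reads; 27674987 to 30270598 reads per library).

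For ratios, 0.5 was added to each mean or height. Log2(height + 0.5), centred on each library's median over peaks, was fitted with limma-trend (limma 3.58.1, R 4.3.3) for Rcor2 against input, two-sided, over all 6995 peaks, with no replicate block, and p-values were adjusted by Benjamini-Hochberg at 0.05. This fit had 2 residual and 181 prior degrees of freedom, so the spread of a peak came mostly from a trend over all peaks. Heights are not read counts, so no count test was made on them and no interval was given. RNA was fitted by limma on log2(normalized count + 1) over genes with a mean of at least 10; edgeR 4.0.16 on the recovered reads was an alternative. Both fits were tested on simulated data. There the peak fit missed most of the smaller changes and most of the larger falls, so a peak that was not called may still differ. Motifs and CG dinucleotides were counted in RefSeq promoter windows; microRNA sequence is RefSeq's (GRCm38.p6). Python 3.11.15 with matplotlib 3.10.9 drew the figures.

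The rule for named genes was: the 12 highest ratios among peaks above with at least the median Rcor2 height and the 8 lowest, 1 per gene; the 6 highest inputs; up to 3 genes of each list by their best peak; Rcor2, Rest and Kdm1a; the 5 genes with the most peaks above; and the 4 genes with the smallest RNA adjusted p in each direction among those with their best peak above. Unnamed intergenic peaks of the rule and some list genes are given by counts only. The members and lists were chosen with earlier results of these data known. Some results are not reported here.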

Additional observations from a re-analysis of the deposited data

How the results depend on the processing

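Depth was not known for any chromatin library, and 2 libraries per group let no single peak pass an exact permutation test. Of peaks above and below, 206 and 16 were counted without centring (typical log2 difference 0.39), 267 and 356 after quantile normalization and 7 and 7 with the IgG libraries in the fit (1136 at an unadjusted p under 0.05), against 452 and 670; at a −log10 q of at least 5, 377 of 3881 peaks were below. Leaving out 1 library gave 38 to 121 above and 15 to 466 below. Upper quartile centring (662 and 527; typical log2 difference 0.18), added values of 1 and 2 and a minimum of 5 for the mean height stayed within 1.5 times. Both Rcor2 heights were above both inputs at 1833 peaks at a −log10 q of at least 5, and at 2934 to 5226 with 1 library left out. A ratio of at least 2 after centring was found at 463 peaks. At a −log10 q of at least 5, 120 peaks were in the top 388 of both replicates. The promoter difference in the median ratio kept its sign under all 7 alternatives.

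The replicate numbers are shared by Rcor2 and input. The deviations of same-numbered libraries had a correlation of -0.02 across the 6995 peaks, so the main fit did not take the numbers as pairs. The ratios of replicate 1 and replicate 2 did put same-numbered libraries together. With the inputs crossed, 224 peaks were in the top 699 of both replicates, against 216. With the replicate block 339 peaks were above and 567 below, and 895 genes rose and 1181 fell.

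In RNA, 58 to 1532 genes rose and 82 to 1921 fell with 1 library left out, against 882 and 1188; of genes with a peak above, 1 to 56 rose and 2 to 35 fell. Of the 63 called peaks under the rule for named genes, 25 calls were lost without centring, 18 after quantile normalization, 56 with IgG in the fit and 32 to 47 with 1 library left out; of the 122 peaks of the strictest set, 112, 107, 7 and 28 to 60 were still called. None of the 63 changed sign under any alternative run. Of those that were not called, Kdm1a turned to 0.26 without centring and 0.050 with upper quartile centring, and Mycl to -0.0079 at a −log10 q of at least 5; with 1 library left out Kdm1a ran from -0.35 to 0.24 and Mycl from -0.27 to 0.44. The cause was not tested.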

Other observations

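Only 33 of the 6995 peaks lay on chromosome X, with a median input height of 9.0 and a median ratio of 1.74, and 6 on chromosome Y, with median heights of 33.3 in Rcor2 and 31.8 in input (mean of both replicates). Among the autosomes, the median ratio ran from 1.23 on chromosome 17 to 1.43 on chromosome 12. In all, 21 genes had a peak above and another below. Hes5, Tcf7l1, Slit1 and Npas3 were among them, and so were Dlg2, with ratios from 0.683 to 4.80, and Hs2st1, a sulfotransferase of heparan sulfate, from 0.411 to 2.82. IgG heights hardly changed along the 10 sets by input height, with medians of 3.5 in the lowest and 4.5 in the highest, while input went from 6.0 to 25.5.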
